A study of Homo sapiens with 6 samples.

Results

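The genes described here are 28 enzymes and carriers of cholesterol and fatty acid synthesis, followed across cells transfected with a control microRNA or with duplexes of either arm of miR-324. They were chosen by symbol as textbook members of the pathways, with earlier results of these data known. Of the 28, 19 belong to the cholesterol arm and 9 to the fatty acid arm. All 28 were found among the 20979 symbols listed in any library, and all 28 reached the minimum of 1 TPM on average (TPM weights reads by transcript length and by the library's total, so that levels of different genes can be set side by side). The cells were A172, a human glioblastoma line grown in medium with serum. The groups were cells transfected with control miRNA, with the miR-324-5p duplex (5p duplex) or with the miR-324-3p.1 duplex (3p.1 duplex), with 2 libraries each. Every group, the controls included, received a small RNA with a lipid transfection reagent and was harvested after 1 day. The labels name 1 line and do not say whether the replicates were separate cultures, so every p-value below rests on the spread among these 6 samples, which may be technical.

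Cholesterol is built from acetyl-CoA through mevalonate, isoprenoids and squalene to lanosterol, which late enzymes trim to cholesterol, while fatty acids are built from the same acetyl-CoA and then elongated and desaturated. Both sets of enzymes are switched on by the SREBP transcription factors, which are released from the endoplasmic reticulum when its membranes are low in sterol. Glioblastoma cells are known for heavy use of lipid, and take up much of their cholesterol from outside. A microRNA lowers messenger RNAs whose 3′ untranslated region pairs with its seed, bases 2 to 8 from the 5′ end.

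The sequences of the miR-324 arms are shown because the sites counted below follow from them. They come from RefSeq on GRCh38.p14 (hairpin at chr17:7223297-7223379, minus strand), with the seed in capitals. Which bases begin the 3p.1 duplex is not stated in the labels. The 3p arm was therefore read from bases 50, 51 and 53 of the hairpin, and which strand of a duplex was active was not measured.
miR-324-5p: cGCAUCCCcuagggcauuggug
3p arm from base 50: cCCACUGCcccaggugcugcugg
3p arm from base 51: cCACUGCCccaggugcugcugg
3p arm from base 53: aCUGCCCCaggugcugcugg
Sites are matches to the seed in DNA letters: GGGATGC for miR-324-5p, and for the 3p arm GCAGTGG from base 50, GGCAGTG from base 51 or GGGGCAG from base 53. The words from bases 50 and 51 overlap by 6 letters, so 1 stretch can count for both. A site is a 7mer-m8 when all 7 bases match, a 7mer-A1 when the last 6 of them are followed by A, and an 8mer when both hold.

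The libraries held between 13216 and 13536 genes at 1 TPM or more, and their depth is unknown. Of the glioblastoma and glial markers read, VIM (4788 to 5910 TPM), CD44 (708 to 929 TPM) and NES (90.9 to 133 TPM) were high in all 6 libraries, while CHI3L1 (1.91 to 2.91 TPM) and TNC (0.14 to 0.46 TPM) were low. The astrocyte markers GFAP (at most 0.25 TPM) and SLC1A3 (at most 0.01 TPM) were near 0. The hepatocyte marker ALB reached at most 0.02 TPM. Of the epithelial markers read, the keratins KRT8 (259.5 to 486 TPM) and KRT18 (612 to 858 TPM) were high and CLDN4 stood at 10.9 to 27.4 TPM. CDH1 (at most 0.17 TPM), KRT5 (at most 2.23 TPM), EPCAM (at most 3.01 TPM) and KRT19 (at most 4.23 TPM) were low. Of the blood markers, PTPRC stood at 5.52 to 7.48 TPM and CD68 at 32.7 to 60.2 TPM. CD14 reached at most 1.29 TPM, and CD3E and HBB were at 0. Markers of interferon response differed between the groups and between the controls. The 40 genes of an interferon list, chosen with earlier results of these data known, summed to 3069 and 7263 TPM in control replicates 1 and 2, to 1339 and 1415 TPM in 5p duplex cells and to 1300.1 and 1314 TPM in 3p.1 duplex cells. All 40 had log2 differences below 0 with either duplex, against 57.2% of all genes with the 5p duplex and 59% with the 3p.1 duplex. The medians of the 40 were -2.37 and -2.33. Of the 40, IFI6, IFI27, IFITM1 and IRF9 passed the test (limma), all 4 lower with the 5p duplex, where 0.425% of all genes were called lower. With the 3p.1 duplex 0 of the 40 passed.

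The 28 genes covered a wide range of levels. FDPS, which makes farnesyl pyrophosphate, had the highest mean over the 6 libraries, 373 TPM, and TM7SF2, one of the sterol reductases, the lowest, 2.57 TPM. Next to FDPS stood the fatty acid desaturase FADS2 (302 TPM), the ATP citrate lyase ACLY (247 TPM) and the squalene synthase FDFT1 (225 TPM). Near the lower end were SC5D, a late sterol desaturase, at 9.14 TPM, and MVK, the mevalonate kinase, at 15.7 TPM. The differences between neighbours in this order were often smaller than the spread between libraries: FADS2 ran from 257 to 331 TPM and ACLY from 239 to 256 TPM, while FDPS, from 328 to 416 TPM, overlapped FADS2. The summed TPM of the 28 genes was 2666 and 2999 in the controls, 2431 and 2725 in 5p duplex cells, and 2450 and 2852 in 3p.1 duplex cells. Each group's range overlapped those of the others.

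**Figure D1:**
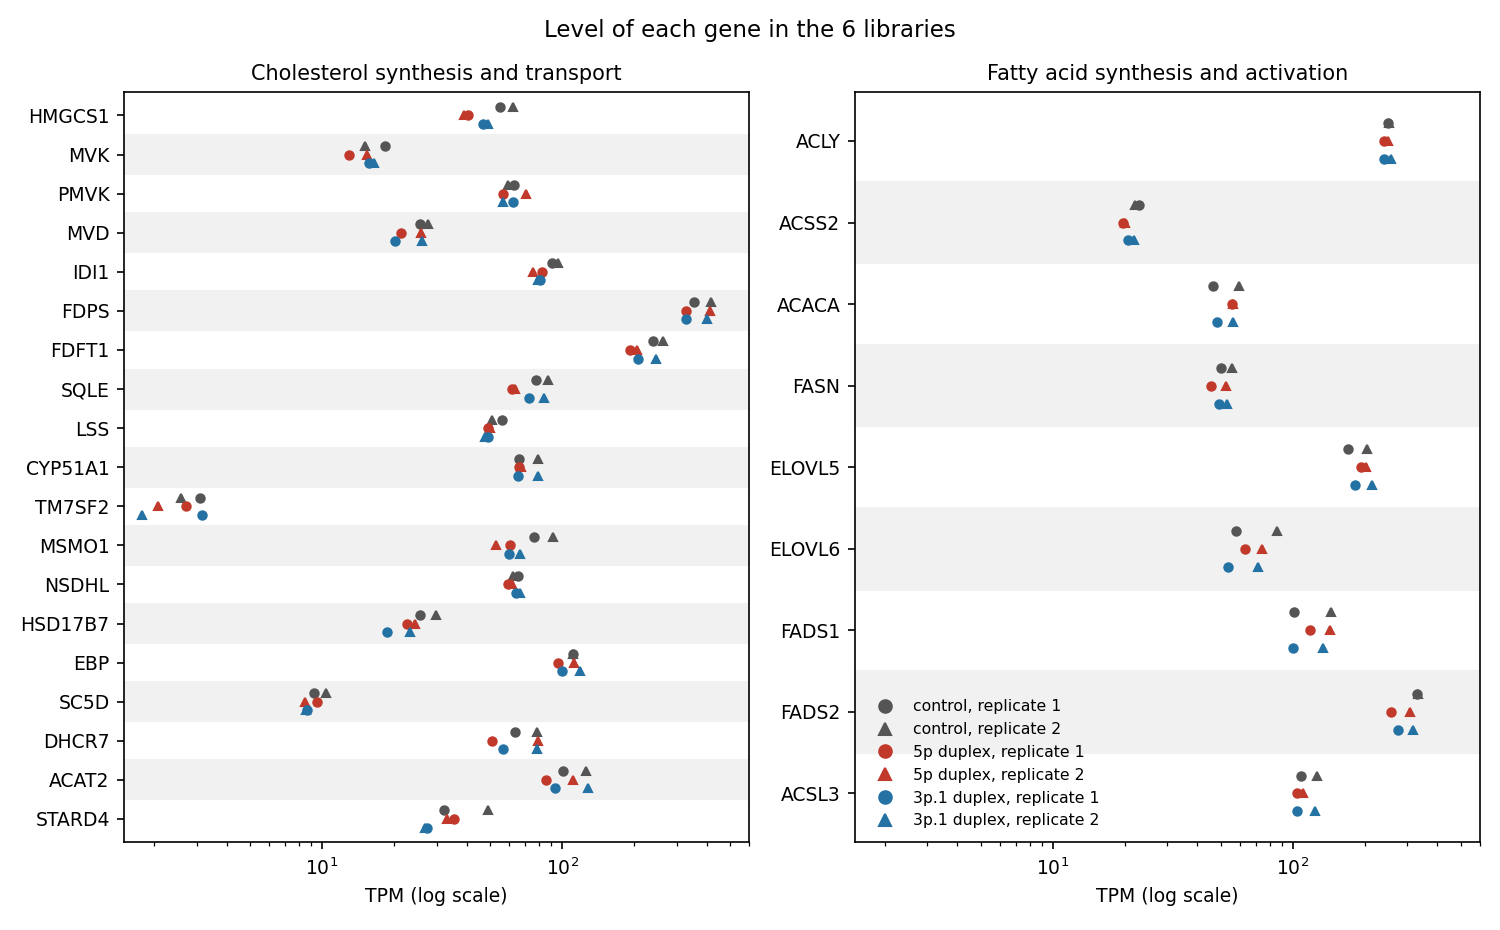
TPM of the 28 genes in each of the 6 libraries, on a log axis, with circles for replicate 1 and triangles for replicate 2. Levels ran from TM7SF2 at a mean of 2.57 TPM to FDPS at 373 TPM, and for most genes the 3 groups lay close together.

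The first question was whether the enzymes stood at other levels with the 5p duplex than with control. None of the 28 passed the test against control (limma, adjusted p under 0.05), where 0.425% of the 13400 genes tested were called lower and 0.0373% higher. At an unadjusted p under 0.05, 5 of the 28 were lower and 0 higher, against 7.3% and 1.86% of all genes, or 9.16% in either direction. Those 5 were HMGCS1, IDI1, FDFT1, SQLE and MSMO1, all of the cholesterol arm. The groups did not overlap, with both 5p duplex libraries lower, in 11 of the 28, against 22.1% of all genes, and in 0 of the 28 with both higher, against 12.7%. Of the 19 cholesterol genes 18 had a log2 difference below 0, and of the 9 fatty acid genes 6, against 57.2% of all genes. The median log2 difference was -0.18 for the cholesterol genes and -0.041 for the fatty acid genes, beside -0.030 for all genes tested. Leaving out 1 library moved the cholesterol median between -0.25, when control replicate 1 was dropped, and -0.10, when 5p duplex replicate 1 was. It moved the fatty acid median between -0.15 (without 5p duplex replicate 2) and -0.0047 (without 5p duplex replicate 1).

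HMGCS1, a synthase early in the mevalonate pathway, had the lowest p of the 28. It stood at 55.3 and 62.4 TPM in control cells, 40.6 and 39.0 TPM in 5p duplex cells and 46.9 and 49.1 TPM in 3p.1 duplex cells. The 3 groups did not overlap: control was highest, the 3p.1 duplex between, the 5p duplex lowest. With the 5p duplex the log2 difference from control was -0.55 (SE 0.0977, 95% interval -0.79 to -0.31, adjusted p = 0.0967). In the fits that left out 1 library it ran from -0.64 to -0.46 (adjusted p = 0.102 to 0.401). The gene lies at chr5:43289395-43313512 on the minus strand (GRCh38).

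MSMO1, the oxidase that removes methyl groups from the sterol ring at carbon 4, had the lowest log2 difference with the 5p duplex. It stood at 76.6 and 91.8 TPM in control cells, 60.5 and 52.8 TPM in 5p duplex cells, and 60.2 and 66.6 TPM in 3p.1 duplex cells. Both duplex groups lay wholly below the controls and overlapped each other. The log2 difference from control was -0.56 with the 5p duplex (SE 0.126, 95% interval -0.87 to -0.26, adjusted p = 0.170). It lies at chr4:165327623-165343160 on the plus strand.

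Of the other 3 of the 5, SQLE and FDFT1 act at squalene and IDI1 acts earlier, on isoprenoid units. SQLE, the squalene epoxidase and a rate-limiting step of the later pathway, stood at 77.7 and 87.4 TPM in control cells, 62.0 and 63.9 TPM in 5p duplex cells and 72.9 and 84.0 TPM in 3p.1 duplex cells. Only the 5p duplex libraries lay apart. The log2 difference from control was -0.38 (SE 0.108, adjusted p = 0.296). FDFT1, which joins farnesyl units into squalene, stood at 239 and 262 TPM in control cells, 192 and 205 TPM in 5p duplex cells and 206 and 247 TPM in 3p.1 duplex cells. Its 5p duplex libraries were the 2 lowest of the 6 (log2 -0.33, SE 0.114, adjusted p = 0.419). IDI1, the isomerase that makes the isoprenoid units interchangeable, stood at 90.7 and 96.3 TPM in control cells, 82.4 and 75.4 TPM in 5p duplex cells and 81.2 and 79.4 TPM in 3p.1 duplex cells. Both duplex groups were below the controls and overlapped each other (log2 -0.24 with the 5p duplex, SE 0.0892, adjusted p = 0.469).

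**Figure D2:**
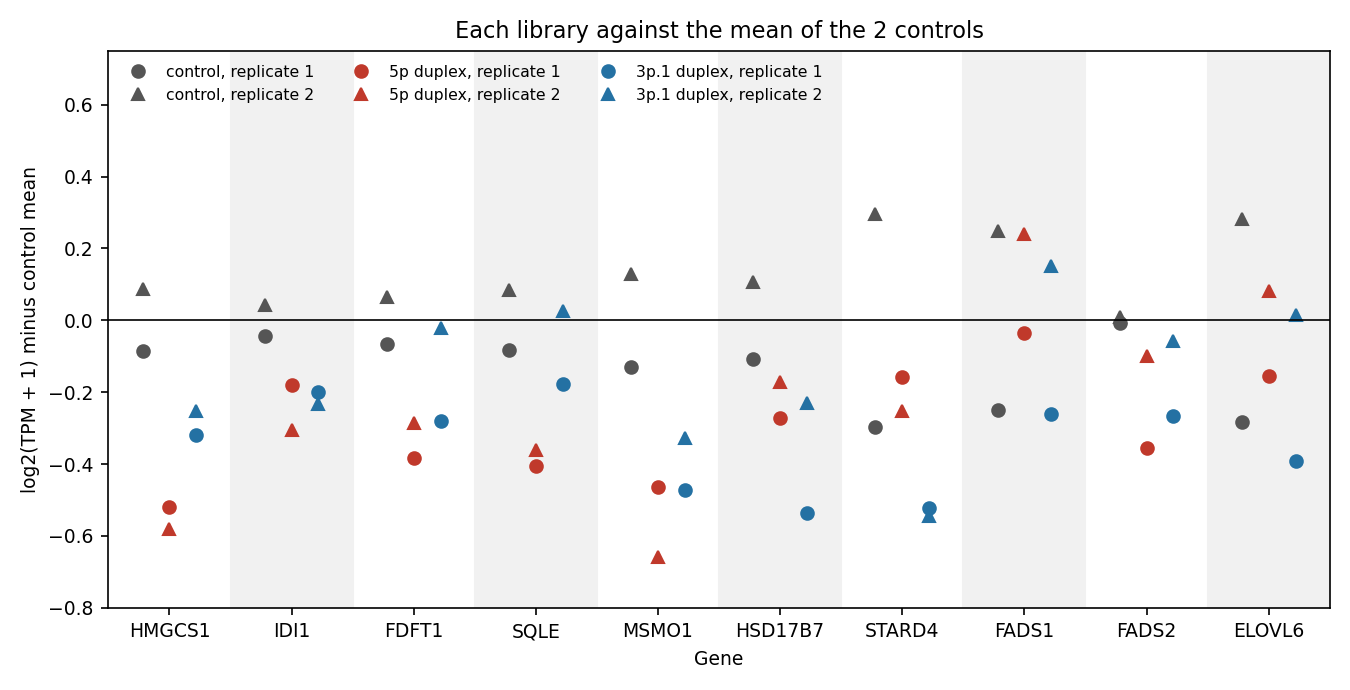
Log2(TPM + 1) of each library minus the mean of the 2 controls, with circles for replicate 1 and triangles for replicate 2. The 7 cholesterol genes shown are those with an unadjusted p under 0.05 (limma) against control with either duplex, all lower. The 3 fatty acid genes are those that carry miR-324-5p sites, so the panel does not compare the arms. HMGCS1 and SQLE have both 5p duplex libraries below every other library, STARD4 has both 3p.1 duplex libraries lowest, and FADS1 and ELOVL6 spread as widely within groups as between them.

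The remaining genes between acetyl-CoA and squalene had no unadjusted p under 0.05 with the 5p duplex (limma), though ACAT2 and MVK lay near the -0.24 of IDI1. ACAT2, which joins acetyl-CoA units in the cytosol, had a log2 difference of -0.21 with the 5p duplex, and the mevalonate kinase MVK, the phosphomevalonate kinase PMVK and the decarboxylase MVD had -0.22, 0.045 and -0.17 (adjusted p = 0.851, 0.732, 0.954 and 0.831). FDPS, the most abundant of the set, had -0.056 (95% interval -0.44 to 0.33, adjusted p = 0.953). In each of these 5 genes the 5p duplex and control libraries overlapped. PMVK stood at 63.1 and 59.7 TPM in control cells and at 56.5 and 71.0 TPM in 5p duplex cells, so its spread between duplex replicates was wider than the difference of the means.

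Of the steps after SQLE, only MSMO1 had an unadjusted p under 0.05 with the 5p duplex (limma). LSS, NSDHL and HSD17B7 also had both 5p duplex libraries below both controls. LSS, which closes the sterol rings, stood at 56.1 and 51.1 TPM in control cells and 49.2 and 50.3 TPM in 5p duplex cells (log2 -0.11, adjusted p = 0.820). CYP51A1, the lanosterol demethylase, had a log2 difference of -0.12, NSDHL and HSD17B7, which work with MSMO1 on the carbon 4 methyl groups, -0.071 and -0.22, and the isomerase EBP -0.098 (adjusted p = 0.867, 0.878, 0.732 and 0.884). SC5D, TM7SF2 and DHCR7, which set and remove the double bonds, had -0.11, -0.18 and -0.15 (adjusted p = 0.860, 0.886 and 0.912). DHCR7 had the widest spread of the 28 between the 5p duplex replicates on the log2 scale, a difference of 0.63, from 50.8 to 79.3 TPM. The 95% interval of DHCR7 ran from -0.75 to 0.45 and that of TM7SF2 from -0.73 to 0.37. Both include larger falls than the -0.56 of MSMO1.

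The fatty acid enzymes had a median closer to control with the 5p duplex, -0.041 beside -0.18 for the cholesterol genes. ACLY, which makes cytosolic acetyl-CoA, stood at 250.01 and 252 TPM in control cells and at 240.4 and 248 TPM in 5p duplex cells (log2 -0.041, 95% interval -0.24 to 0.16, adjusted p = 0.932). ACSS2, which makes acetyl-CoA from acetate, stood at 22.8 and 22.1 TPM and at 19.5 and 20.1 TPM (log2 -0.17, adjusted p = 0.680), with groups that did not overlap. The carboxylase ACACA and the fatty acid synthase FASN had log2 differences of 0.089 and -0.11 (adjusted p = 0.911 and 0.860). The elongases ELOVL5 and ELOVL6 had 0.083 and -0.037, and ACSL3, which activates long fatty acids, -0.12 (adjusted p = 0.907, 0.977 and 0.860). No fatty acid gene had an unadjusted p under 0.05 with either duplex. Whether the cholesterol and fatty acid arms differ in their response was not tested.

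**Figure D3:**
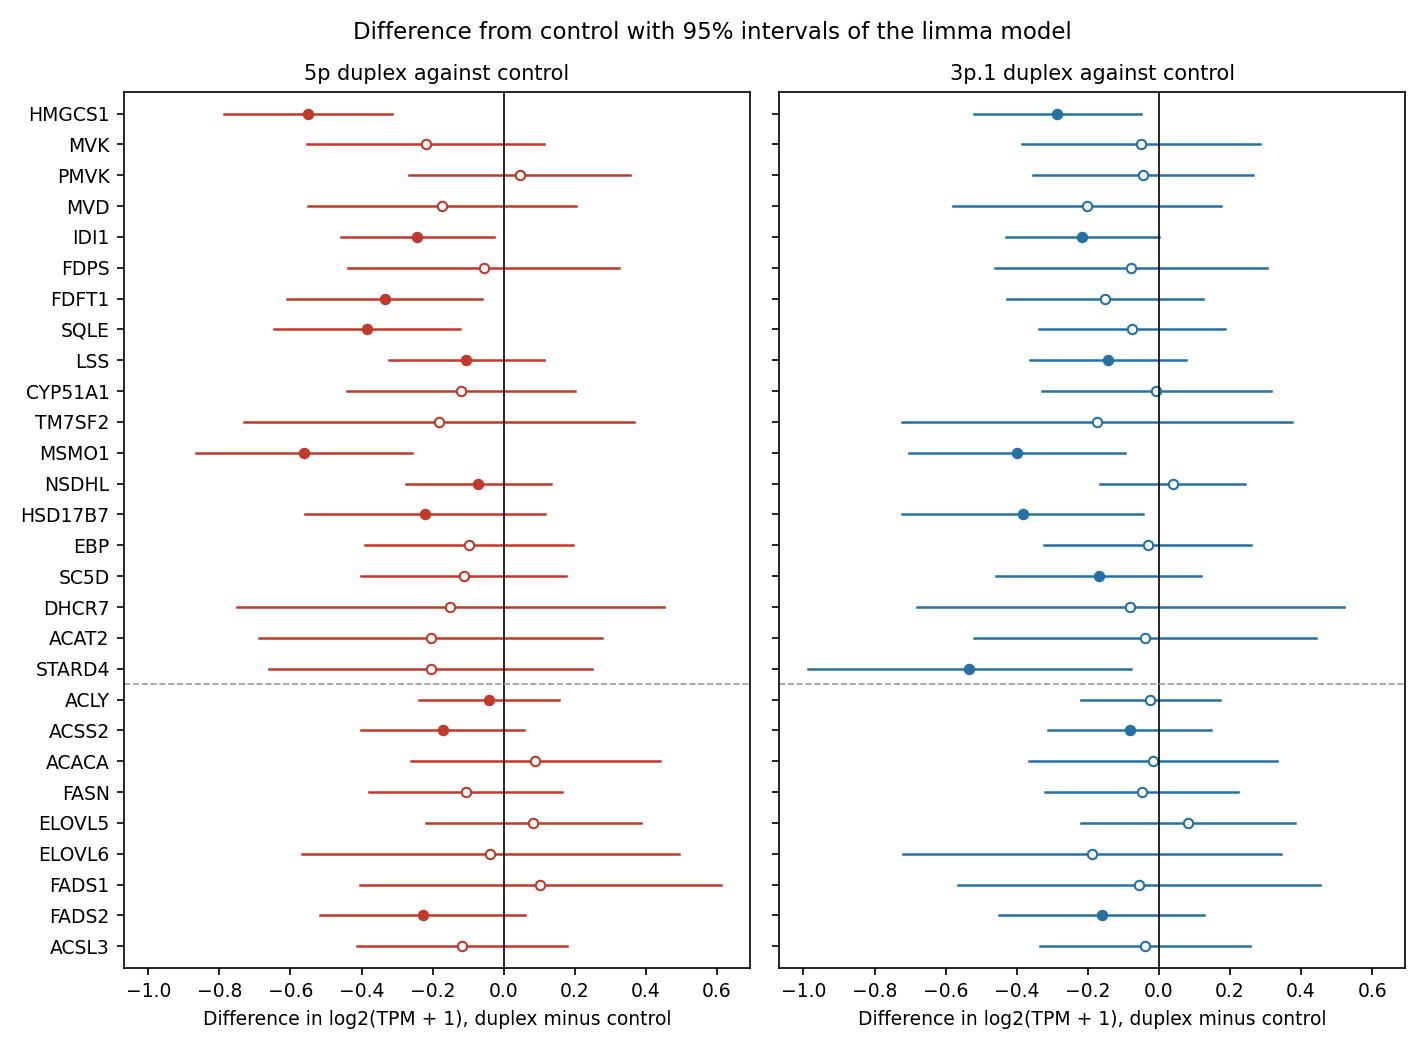
Difference from control in log2(TPM + 1) for each of the 28 genes with the 95% interval of the limma model, 5p duplex left and 3p.1 duplex right. Filled points mark genes whose 2 groups did not overlap, and the dashed line parts the 19 cholesterol genes from the 9 fatty acid genes. Intervals that end below 0 belong to HMGCS1, IDI1 and MSMO1 in both panels, FDFT1 and SQLE with the 5p duplex, and HSD17B7 and STARD4 with the 3p.1 duplex.

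The second question was the same for the 3p.1 duplex, against the same 2 control libraries, so the comparisons are not independent. None of the 28 passed the test (limma), where 0.00746% of genes were called lower and the same share higher. At an unadjusted p under 0.05, 5 were lower, against 5.62% of all genes, and 0 higher, against 1.24%, where 6.86% of genes were so in either direction. They were HMGCS1, IDI1, MSMO1, HSD17B7 and STARD4. Both 3p.1 duplex libraries lay below both controls in 9 of the 28, against 24.1% of all genes, and above them in 0, against 12.1%. A log2 difference below 0 was found for 26 of the 28, against 59% of all genes. However, leaving out 3p.1 duplex replicate 1 left 14 of the 28 below 0, and leaving out control replicate 2 left 16. The share of all genes below 0 in those fits was not counted. The median was -0.14 for the cholesterol genes and -0.049 for the fatty acid genes, beside -0.033 for all genes. Without 3p.1 duplex replicate 1 the cholesterol median was -0.025, the same as for all genes in that fit, and the fatty acid median 0.025. Without control replicate 2 they were -0.097 and 0.071, beside -0.021 for all genes.

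STARD4, a carrier that moves sterol between membranes, had the lowest log2 difference here. It stood at 32.2 and 49.0 TPM in control cells, 35.5 and 33.2 TPM in 5p duplex cells and 27.4 and 26.9 TPM in 3p.1 duplex cells. The 3p.1 duplex libraries were the 2 lowest, and control replicate 2 stood apart from the other 5 libraries. The log2 difference from control was -0.53 (SE 0.188, 95% interval -0.99 to -0.079, adjusted p = 0.650), and it was -0.24 without control replicate 2 and -0.83 without control replicate 1. MSMO1 and HMGCS1 had log2 differences of -0.40 (SE 0.126, adjusted p = 0.594) and -0.29 (SE 0.0977, adjusted p = 0.633). HSD17B7 stood at 25.5 and 29.7 TPM in control cells, 22.6 and 24.3 TPM in 5p duplex cells and 18.7 and 23.3 TPM in 3p.1 duplex cells (log2 -0.38 with the 3p.1 duplex, SE 0.140, adjusted p = 0.660). IDI1 had -0.22 (SE 0.0892, adjusted p = 0.726). The other genes lay between -0.20 (MVD, adjusted p = 0.889) and 0.082 (ELOVL5, adjusted p = 0.967), and among them LSS, SC5D, ACSS2 and FADS2 had both 3p.1 duplex libraries below both controls.

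The third comparison set the 2 duplexes against each other and used no control library for the means. None of the 28 passed the test (limma), where 0.351% of genes were called lower with the 5p duplex and 0.0821% higher. Lower with the 5p duplex at an unadjusted p under 0.05 were 2 of the 28, SQLE and HMGCS1, against 4.96% of all genes, and higher were 0, against 4.39%, with 9.34% of genes in either direction. SQLE had a log2 difference of -0.31 (SE 0.108, 95% interval -0.57 to -0.048, adjusted p = 0.446) and HMGCS1 of -0.26 (SE 0.0977, 95% interval -0.50 to -0.029, adjusted p = 0.475). STARD4 lay the other way, 0.33 higher with the 5p duplex (SE 0.188, 95% interval -0.13 to 0.78, adjusted p = 0.678). With the 5p duplex, groups were apart and lower in 6 of the 28 (HMGCS1, MVK, FDFT1, SQLE, NSDHL and ACSS2), against 19.4% of all genes, and apart and higher in 2 (LSS and STARD4), against 21%. A log2 difference below 0 was found for 17 of the 28, against 48.7% of all genes. The median over the 28 was -0.043, beside 0.0055 for all genes, and it turned to 0.025 without 5p duplex replicate 1 and 0.035 without 3p.1 duplex replicate 2.

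**Figure D4:**
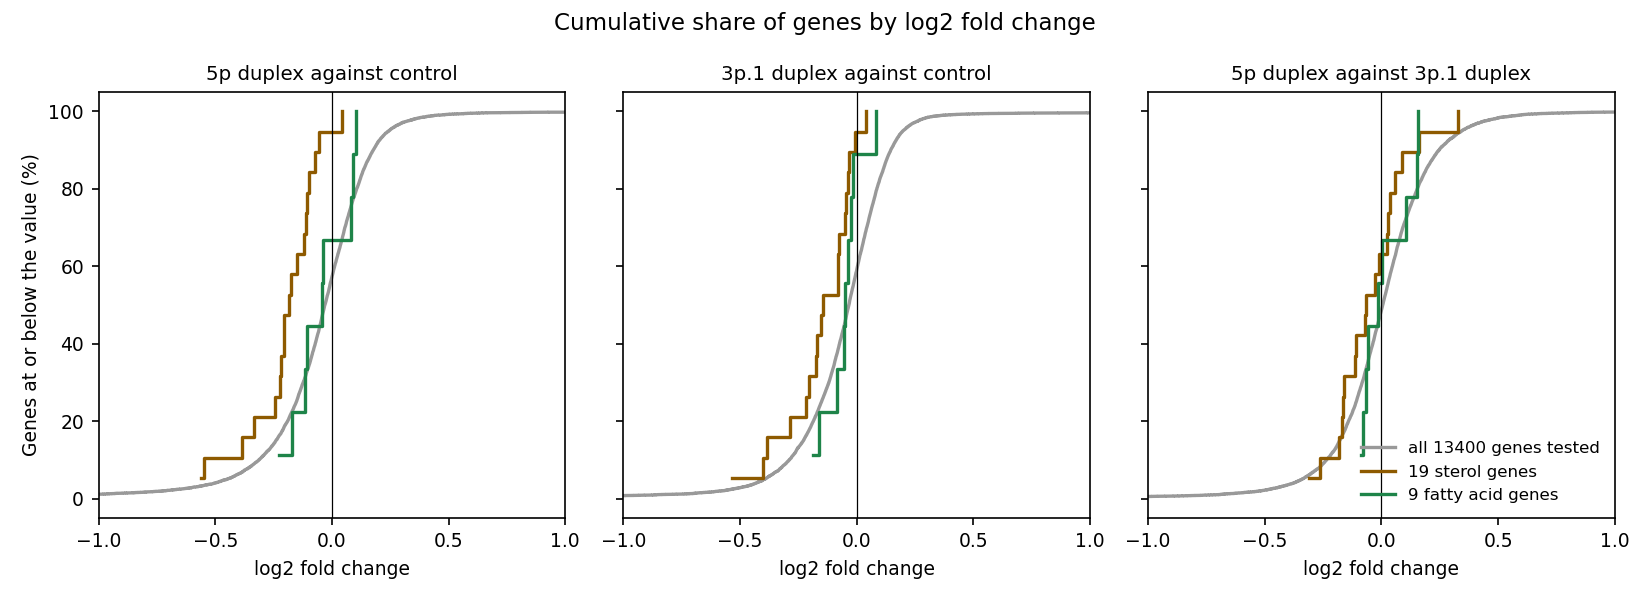
Cumulative share of genes by log2 fold change in the 3 comparisons, for all 13400 genes tested (grey), the 19 cholesterol genes (brown) and the 9 fatty acid genes (green). With all libraries the cholesterol genes lie left of all genes against control, with medians of -0.18 and -0.14 beside -0.030 and -0.033, but for the 3p.1 duplex both medians are -0.025 without its replicate 1. The first 2 panels share their control libraries.

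The replicates differed within groups. Replicate 2 was higher than replicate 1 in 21 of the 28 genes in the controls, 22 in the 5p duplex group and 22 in the 3p.1 duplex group, where 55.9%, 51.0% and 53.2% of all genes were higher in replicate 2. In 16 of the 28 this held in every group, among them FDPS, DHCR7, ACAT2, FADS1 and ELOVL6. The share of all genes for which it held in every group was not counted. TM7SF2 was the 1 gene with replicate 2 lower in every group. The median difference between replicates, replicate 2 minus replicate 1, was 0.16, 0.070 and 0.20 on the log2 scale for the 28 genes. Over all genes tested it was 0.037, 0.0055 and 0.015. FADS1, the delta-5 desaturase, stood at 101 and 144 TPM in control cells, 118 and 143 TPM in 5p duplex cells and 101 and 134 TPM in 3p.1 duplex cells, so the replicate number separated its libraries and the treatment did not. Of the genes that stood lower at an unadjusted p under 0.05 against control, FDFT1, SQLE and HSD17B7 were among those 16, and HMGCS1, IDI1, MSMO1 and STARD4 were not.

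The interferon genes that set control replicate 2 apart were read beside these values. Their part in the values of the lipid genes was not tested. Without control replicate 2, the higher of the controls, the median of the 28 genes was -0.073 for the 5p duplex and -0.058 for the 3p.1 duplex, against -0.14 and -0.080 with all libraries, and HMGCS1 and MSMO1 had log2 differences of -0.46 and -0.43 with the 5p duplex. In that fit 20 of the 28 had log2 differences below 0 with the 5p duplex and 16 with the 3p.1 duplex, against 24 and 26 with all libraries. The share of all genes below 0 in that fit was not counted. The medians of all genes were -0.016 and -0.021 in that fit, against -0.030 and -0.033 with all libraries. SQLE, FDFT1 and IDI1 then stood at -0.30, -0.27 and -0.20 with the 5p duplex. Control replicate 1, which stays in that fit, also had a higher interferon sum (3069 TPM) than any duplex library. Without control replicate 1 instead, the median of the 28 genes was -0.21 for the 5p duplex and -0.18 for the 3p.1 duplex.

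Sites for miR-324-5p lay in 3 fatty acid genes and in none of the 19 cholesterol genes. All 28 genes had an annotated 3′ untranslated region in GENCODE 29, with a median length of 1072 nt beside 1383 nt over the 11747 genes tested that had one. A 7mer or 8mer to GGGATGC was found in 3 of the 28 (10.7%), against 14.6% of those genes. The 3 were FADS1, FADS2 and ELOVL6, and none of HMGCS1, IDI1, FDFT1, SQLE or MSMO1 was among them. The windows are shown because they mark the genes of the set that the 5p seed could pair with. They are written 5′ to 3′ on the strand of the gene, with the site in capitals, and their coordinates (GRCh38) are those of the capitals.
FADS1, 7mer-m8 at chr11:61801318-61801324, minus strand: cttttctccctagaaacaaagGGGATGCcc
FADS1, 7mer-A1 at chr11:61800349-61800355, minus strand: taggaaaattagaagcaagctGGATGCAgt
FADS2, 7mer-A1 at chr11:61866782-61866788, plus strand: tgtgtttaacctgttgctccaGGATGCAtt
ELOVL6, 7mer-A1 at chr4:110049132-110049138, minus strand: ataagagctaatagatgcttaGGATGCAaa

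The genes with these sites did not pass the test. FADS1, with 2 sites, had a log2 difference of 0.10 with the 5p duplex (SE 0.211, 95% interval -0.41 to 0.61, adjusted p = 0.937). ELOVL6, which elongates palmitate, stood at 57.8 and 86.1 TPM in control cells, 63.3 and 74.7 TPM in 5p duplex cells and 53.6 and 71.2 TPM in 3p.1 duplex cells (log2 -0.037 with the 5p duplex, adjusted p = 0.977). FADS2, the delta-6 desaturase, stood at 327 and 331 TPM in control cells, 257 and 307 TPM in 5p duplex cells and 274 and 316 TPM in 3p.1 duplex cells. Both duplex groups of FADS2 lay below the controls, by a log2 difference of -0.23 (SE 0.119, adjusted p = 0.648) and -0.16 (adjusted p = 0.883). FADS1 and FADS2 are neighbours whose exons overlap on opposite strands, so their reads may be hard to part.

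Sites for the 3p arm were more numerous than those for the 5p arm, in the set and among all genes. GCAGTGG sites were found in 10 of the 28 (35.7%, against 32.1% of genes), GGCAGTG sites in 12 (42.9%, against 30.9%) and GGGGCAG sites in 9 (32.1%, against 28.1%). The genes that stood lowest with the 3p.1 duplex differed in the sites they held. STARD4 had 3 sites to GCAGTGG and 1 to GGCAGTG, which overlaps 1 of those 3. MSMO1 had a 7mer-A1 to GGCAGTG, HMGCS1 a 7mer-A1 to GGCAGTG and a 7mer-m8 to GGGGCAG, and HSD17B7 and IDI1 none. The 8mers of the set, to GCAGTGG, were in LSS and ACLY, which had log2 differences of -0.14 and -0.024 with the 3p.1 duplex (adjusted p = 0.848 and 0.989). One site each is shown for the 3 lowest genes that hold one. Each follows a different start of the 3p arm, so they are not sites of 1 seed, and the start of the duplex is not known. The share of all genes with a site for any of these starts was not counted.
STARD4, 7mer-m8 to GCAGTGG at chr5:111499641-111499647, minus strand: ctctgttgcccatgctggaggGCAGTGGta
MSMO1, 7mer-A1 to GGCAGTG at chr4:165342730-165342736, plus strand: attgaacctcatcaattgataGCAGTGAgt
HMGCS1, 7mer-m8 to GGGGCAG at chr5:43290206-43290212, minus strand: ttaaaatggaagggaagaataGGGGCAGgg

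The promoters share a feature that the choice of genes did not use. RefSeq promoters on GRCh38.p14, from 250 bases before to 50 after the start, were matched for 24 of the 28 genes. The CCAAT box, the 5 letters bound by NF-Y, a factor known to work beside SREBPs, was found on either strand in 20 of the 24 (83.3%), against 43.5% of the 9882 tested genes with a promoter and 34.6% of all 35116 promoters of this length. It was found in 17 of the 24 when only the first entry of each gene was read. The 4 without it were PMVK, CYP51A1, ELOVL6 and FADS1. The GC box GGGCGG, bound by Sp1, was found in 22 of the 24 (91.7%), against 76.3% of those genes and 45.0% of all promoters. The 9 letters TCACNCCAC, one spelling of the sterol regulatory element, were found in 0 of the 24, against 1.52% and 1.13%, and the E-box CACGTG in 3 (12.5%, against 12.4% and 7.26%). Each motif was searched on both strands. A gene with several promoter entries was counted when any of them held the motif. These matches describe letters, not binding. One CCAAT box is shown for each of the genes with the lowest log2 differences, on the strand of the gene, where ATTGG is the box on the opposite strand.
HMGCS1, chr5:43313495-43313524, minus strand: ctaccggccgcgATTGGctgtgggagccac
MSMO1, chr4:165327581-165327610, plus strand: caactgcacagaCCAATcaccgcgccgaga
STARD4, chr5:111512679-111512708, minus strand: atttatcggccaCCAATcagccctccacac

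The genes that control the pathway were followed beside the enzymes, from a list of regulators, uptake genes and other SREBP targets. Of 20 tested, 2 fell with the 5p duplex and 0 rose, where 0.425% of all genes were called lower and 0.0373% higher: SREBF2, which encodes the SREBP that drives cholesterol genes, from 29.04 and 31.3 TPM to 12.4 and 12.6 TPM (log2 -1.21, SE 0.111, adjusted p = 0.0189), and SCD, the stearoyl-CoA desaturase, from 462 and 573 TPM to 200.4 and 183 TPM (log2 -1.42, adjusted p = 0.0376). Among the fits that left out 1 library, both calls stood without control replicate 1 (adjusted p = 0.0246 and 0.0389) and were lost without each of the other 5 (adjusted p up to 0.130 and 0.247). The log2 differences over these fits ran from -1.26 to -1.15 for SREBF2 and from -1.58 to -1.27 for SCD. The list was chosen with earlier results of these data known. With the 3p.1 duplex SREBF2 stood at 23.9 and 27.6 TPM, and none of the 20 was called. SREBF1, which encodes the SREBP of fatty acid genes, stood at 39.8 and 27.1 TPM in control cells and at 30 and 26.2 TPM in 5p duplex cells (adjusted p = 0.821).

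Other branches of lipid metabolism held no called gene in any of the 3 comparisons. The isoprenoid branch that uses farnesyl pyrophosphate (17 genes) had a median log2 difference of 0.0059 for the 5p duplex and -0.0079 for the 3p.1 duplex. The list of cholesterol export, esterification and LXR targets (10 genes) had medians of -0.041 and -0.084. In that list ABCA1, which exports cholesterol, stood at 63.9 and 76.5 TPM in control cells, 86.5 and 74.4 TPM in 5p duplex cells and 56.8 and 51.4 TPM in 3p.1 duplex cells, with log2 differences of 0.20 and -0.37 (adjusted p = 0.748 and 0.650). NR1H2, one of the LXR sterol receptors, had -0.38 for the 5p duplex and 0.024 for the 3p.1 duplex (adjusted p = 0.396 and 0.990). Among 19 other genes of fatty acid elongation, desaturation and activation, FADS3 stood at 74.6 and 71.1 TPM in control cells, 77.4 and 83.7 TPM in 5p duplex cells and 57.0 and 48.8 TPM in 3p.1 duplex cells (log2 -0.46 with the 3p.1 duplex, adjusted p = 0.424). ACSL4, which activates polyunsaturated fatty acids, stood at 29.9 and 32.5 TPM in control cells and at 41.8 and 40.3 TPM in 5p duplex cells (log2 0.39, adjusted p = 0.226).

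Some values of the set are uncertain because other genes can share their reads: GENCODE 29 names 8 pseudogenes after FDPS, 3 after CYP51A1, 2 after HSD17B7 and 1 after FADS2, and exons of 12 of the 28, HMGCS1, IDI1, FDFT1 and STARD4 among them, overlap a gene on the opposite strand. Another gene overlaps exons on the same strand, where strand cannot part the reads, in 4 of the 28: CYP51A1, TM7SF2, FADS1 and FADS2. Libraries were stranded, per the labels' protocols, and how strand was used in counting is not given in the sources used here. MSMO1 and SQLE had no such partner of any kind.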

How the data were processed

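Per the labels' protocols, oligo-dT selected RNA gave stranded libraries, sequenced as 100 bp pairs. The authors deposited 1 list of symbols with TPM per library; RSEM and GRCh38 are named per the submitters' processing notes, with aligner, annotation and versions not given in the sources used here. Repeated symbols were summed and unlisted symbols taken as 0. TPM keeps no depth, so no count test or counting interval was possible. Log2(TPM + 1), which understates changes of low genes, was fitted with limma 3.58.1 in R 4.3.3 for the 13400 genes averaging 1 TPM or more: group means over all 6 libraries, variance trend, 3 residual and 3.38 prior degrees of freedom, two-sided, Benjamini-Hochberg over all genes, called under 0.05. The fit was also run on simulated data with independent noise per gene and library, and its outcome is not reported here. Errors are standard errors. An exact permutation test of 2 against 2 cannot go below p = 0.333 and was not used. Named were all 28 members, SREBF1 and SREBF2, and from 7 other lists called genes and the 3 largest differences at a mean of 5 TPM or more; not all of the latter are printed, and some results are not reported here. Members and lists were chosen with earlier results of these data known. The 12 alternatives are described in the closing section. Longest 3′ untranslated regions came from protein-coding transcripts of GENCODE 29 (GRCh38), matched by symbol.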

Additional observations from a re-analysis of the deposited data

How the results depend on the processing

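The count of members past the threshold was 0 in all 3 comparisons, and it stayed 0 under a pseudocount of 0.1, no filter on low values, quantile normalization, only the 2 groups compared, no variance trend, and in each fit that left out 1 library, where a lone library was assumed to vary like the other groups. In the fit with the replicate block, 1 member was called with the 5p duplex, HMGCS1 (adjusted p = 0.0308), and 0 in the other 2 comparisons. The replicate numbers are tied to no batch in the labels. Differences between replicates correlated across 13400 genes at 0.265 to 0.383 between groups, and over all genes the block moved the calls from 62 to 367 with the 5p duplex, from 2 to 30 with the 3p.1 duplex and from 58 to 278 between duplexes. Over the other alternatives those counts ran from 7 to 128, 0 to 94 and 5 to 57. The median log2 difference of the 28 genes ran from -0.21 to -0.073 with the 5p duplex, -0.18 to -0.0038 with the 3p.1 duplex and -0.13 to 0.035 between duplexes in the fits without 1 library, and was -0.094, -0.068 and -0.033 with quantile normalization. Of 1008 values of single members under an alternative, 69 took the other sign, none of them past the threshold before or after. Members with a site numbered the same for each seed when any annotated 3′ untranslated region was used. Depth is unknown, and with 2 libraries per group the 95% intervals of single members spanned 0.39 to 1.2 log2 units, so differences within them were not detectable here.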

Other observations

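The supply side and the burning side of fatty acid metabolism were also read. Of 17 genes of fatty acid oxidation, 0 were called in any comparison, and the median log2 difference was 0.029 with the 5p duplex and -0.034 with the 3p.1 duplex. CPT1A, the gate of mitochondrial fatty acid entry, stood at 20.7 and 21.6 TPM in control cells, 18.7 and 17.5 TPM in 5p duplex cells and 18.2 and 18.3 TPM in 3p.1 duplex cells. Both duplex groups lay below the controls (log2 -0.22 and -0.20, limma adjusted p = 0.585 and 0.773). ACADM, a medium-chain dehydrogenase, had -0.19 in both comparisons (adjusted p = 0.715 and 0.841), which share their controls. Of 16 genes that supply acetyl-CoA and NADPH, 0 were called, with medians of 0.023 and 0.00096. IDH2, a mitochondrial NADPH-making dehydrogenase, stood at 49.8 and 53.7 TPM in control cells, 35.3 and 43.3 TPM in 5p duplex cells and 49.0 and 56.9 TPM in 3p.1 duplex cells, so the 5p duplex libraries were the 2 lowest (log2 -0.39, adjusted p = 0.416).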
